A study of Homo sapiens with 4 samples.

Results

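The epidermal growth factor (EGF) ligands and the ERBB receptors were examined in K562 cells expressing the JAZF1-SUZ12 fusion and in mock cells. The set was defined by symbol and holds 10 of the 35606 genes in the count table: the ligands EREG, AREG, HBEGF, TGFA, BTC and EGF and the receptors EGFR, ERBB2, ERBB3 and ERBB4. The 4 libraries, 2 from cells expressing the fusion (fusion libraries) and 2 from mock cells, were poly(A)-selected and directional. K562 is an established human leukaemia line that carries BCR-ABL1, and JAZF1-SUZ12 is a fusion of endometrial stromal sarcoma that joins JAZF1 to SUZ12, a core subunit of Polycomb repressive complex 2. The label gives uterus as the source of every library, and how the fusion was delivered, what the mock cells carried and whether the cells were clones are not given in the sources used here. Nothing there says that the libraries of a group came from separate cultures, so the spread between them may be technical.

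EGF-family ligands are made as membrane-anchored precursors and are released by metalloproteases. EREG, AREG, TGFA and EGF bind EGFR, HBEGF and BTC bind both EGFR and ERBB4, and EREG also binds ERBB4. ERBB2 has no known ligand of its own, and ERBB3, whose kinase is weak, binds neuregulins and signals mainly as a partner of another ERBB receptor. Bound receptors pair, phosphorylate each other and pass the signal to the RAS-ERK and PI3K-AKT pathways, which are best known from epithelia. In K562 cells the RAS-ERK pathway is already driven by BCR-ABL1.

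Library totals lay between 17260936 and 24423028 estimated counts, so that 1 count was worth between 0.0409 and 0.0579 CPM (rounded counts per 1000000 of the library). JAZF1, a check of the labels, was counted 12 and 27 times in mock and 574 and 731 times with the fusion; SUZ12 had 2781 and 2798 against 4754 and 6582. Replicates differed by a chi-square of 3.86 (JAZF1-SUZ12) and 3.61 (mock) per degree of freedom, and libraries of different groups by at least 12.5, more than sampling noise gives in each case. All 12 erythroid and K562 markers were tested, 5 were called higher and 1 lower, and the list summed to 11742 and 11386 CPM in mock and 13505 and 13366 CPM in fusion libraries. Of the epithelial markers, 3 of 10 were tested, with KRT19 called higher and EPCAM lower, KRT5 and KRT7 had no count, and the list summed to between 228 and 232 CPM in mock and 240.0 and 242 CPM in fusion libraries. Of the stromal markers, 5 of 10 were tested, COL1A1 and PDGFRB were called higher and LUM had no count. The stromal list summed to 15.9 and 14.6 CPM in mock, of which COL1A1 gave 5.18 and 6.39, and to 34.6 CPM in both fusion libraries, of which COL1A1 gave 21.4 and 21.3. Of the lymphoid and myeloid markers, 3 of 8 were tested, LYZ was called lower and MS4A1 had no count; the list summed to 56.1 and 48.2 CPM in mock and 43.0 and 45.0 CPM in fusion libraries. The part of these markers in the results given here was not tested, and in bulk RNA fewer cells of a kind and less RNA per cell cannot be told apart.

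EREG, AREG, BTC and a further ligand gene, EPGN, lie in 1 stretch of chromosome 4. On GRCh38, by GENCODE 29, EPGN spans 74308473 to 74315307, EREG 74365143 to 74388751 and AREG 74445134 to 74455009, all on the plus strand, and BTC spans 74744759 to 74794686 on the minus strand. EREG begins 49.8 kb after the end of EPGN, and AREG begins 56.4 kb after the end of EREG. The windows from 250 bases before to 50 bases after the start of these genes are shown. They differ in whether the exact word TATAAA lies where a TATA box does. That of HBEGF is shown as a ligand gene outside the stretch. All windows were taken from RefSeq on GRCh38.p14 and are written 5′ to 3′ on the gene's strand. Capitals mark matches on either strand to the TATA-box word TATAAA, the AP-1 word TGANTCA, the cyclic AMP response element word TGACGTCA (CRE), the word AGATAA bound by GATA factors, the word TTCNNNGAA bound by STAT factors or the SP1 word GGGCGG.
EPGN (chr4:74308220-74308519, plus strand): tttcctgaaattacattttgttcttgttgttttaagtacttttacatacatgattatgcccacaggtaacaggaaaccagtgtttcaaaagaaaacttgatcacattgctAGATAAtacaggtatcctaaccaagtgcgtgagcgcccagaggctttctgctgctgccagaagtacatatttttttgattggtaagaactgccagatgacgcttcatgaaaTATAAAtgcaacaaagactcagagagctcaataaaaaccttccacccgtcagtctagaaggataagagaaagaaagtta
EREG (chr4:74364895-74365194, plus strand): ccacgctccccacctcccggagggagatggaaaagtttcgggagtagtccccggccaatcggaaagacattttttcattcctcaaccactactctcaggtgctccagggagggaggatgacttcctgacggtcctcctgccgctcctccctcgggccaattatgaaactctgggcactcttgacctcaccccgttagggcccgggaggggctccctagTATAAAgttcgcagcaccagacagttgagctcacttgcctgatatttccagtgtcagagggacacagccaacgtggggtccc
AREG (chr4:74444886-74445185, plus strand): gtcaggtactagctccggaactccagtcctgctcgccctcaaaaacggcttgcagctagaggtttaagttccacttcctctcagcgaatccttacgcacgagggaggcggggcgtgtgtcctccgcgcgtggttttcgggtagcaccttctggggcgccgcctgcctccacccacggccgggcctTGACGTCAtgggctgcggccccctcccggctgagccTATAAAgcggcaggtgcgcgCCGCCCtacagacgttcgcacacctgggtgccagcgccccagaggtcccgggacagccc
BTC (chr4:74794474-74794773, minus strand): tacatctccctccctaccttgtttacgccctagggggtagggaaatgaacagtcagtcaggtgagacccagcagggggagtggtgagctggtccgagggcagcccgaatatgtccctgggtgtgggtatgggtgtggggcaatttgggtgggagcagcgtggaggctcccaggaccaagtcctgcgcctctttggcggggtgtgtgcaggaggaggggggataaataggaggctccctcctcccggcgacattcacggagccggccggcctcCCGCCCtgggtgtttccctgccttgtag
HBEGF (chr5:140346554-140346853, minus strand): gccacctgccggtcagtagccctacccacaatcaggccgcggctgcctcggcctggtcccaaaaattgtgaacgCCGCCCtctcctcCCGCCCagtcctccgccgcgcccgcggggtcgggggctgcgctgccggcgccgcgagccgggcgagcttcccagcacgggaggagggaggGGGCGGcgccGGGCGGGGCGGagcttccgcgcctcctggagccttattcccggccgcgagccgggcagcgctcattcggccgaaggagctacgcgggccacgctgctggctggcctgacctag

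TATAAA began 29 bases before the start in EPGN, 32 in EREG and 29 in AREG. The exact word was not found in the windows of BTC and HBEGF. However, BTC held gataaa, 1 letter away from TATAAA, beginning in the stretch 35 to 25 bases before its start. Of 35116 windows of the same length, 11.5% held TATAAA on either strand, and 2.17% held it on the gene's strand beginning 35 to 25 bases before the start, a stretch chosen after these positions were seen. AREG also held the CRE word TGACGTCA, beginning 65 bases before the start, which 1.85% of all windows held. HBEGF held 5 copies of the SP1 word, the last pair overlapping, against 1 in AREG, 1 in BTC and none in EREG and EPGN; 45.0% of all windows held at least 1. The windows had 4 CG dinucleotides in EPGN, 12 in EREG and in BTC, 27 in AREG and 38 in HBEGF, beside a median of 14 over all windows. Among the other members, EGF held an AP-1 word, TGAGTCA, beginning 17 bases before the start, and a GATA word. ERBB2 held an AP-1 word beginning 222 bases before the start, and ERBB4 held 1 copy of the SP1 word. TGFA and EGFR have 2 windows each; the first of each held the SP1 word, the second of TGFA held none of the words searched, and the second of EGFR held TATAAA and AP-1 words. ERBB3 had no window in the reference and was not searched. A match is a description of these letters and not a measured binding site.

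Counts were high enough to test 6 of the 10 genes. The set was proposed with this comparison known, so the differences of its genes are given as descriptions. Of the 6 tested, 1 was called lower, EREG, and 1 higher, ERBB3, at an adjusted p under 0.05 by edgeR's quasi-likelihood test; over all 14750 genes tested, 24.7% were called, 11.4% lower and 13.3% higher. The libraries of the 2 groups did not overlap in CPM for any of the 6, which was also so for 61.0% of all genes tested. The members with an adjusted p under 0.05 in the authors' deposited table were also EREG and ERBB3. That table compares the same groups, so it is not independent support. In it, 8.5% of genes with an adjusted p passed, 4.93% higher and 3.57% lower. Nothing about the set is read from these shares.

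EREG, which encodes epiregulin, fell in fusion cells. It had 198 and 256 counts in mock, or 9.68 and 12 CPM, and 93 and 146 counts in the fusion libraries, or 5.39 and 5.98 CPM. Both mock libraries lay well above both fusion libraries, with the wider spread in mock. The mean was 10.9 ± 1.65 CPM in mock and 5.68 ± 0.417 CPM in fusion cells (mean ± SD, n = 2 per group). The log2 fold change, JAZF1-SUZ12 over mock, was -0.95 ± 0.17 (SE), a 1.93-fold lower level. As a description, 90 of the 14750 genes tested had a lower log2 fold change. That of EREG lay between -1.09 and -0.78 when 1 library was left out, and it was -1.02 ± 0.34 (SE) in the authors' deposited table.

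AREG, which encodes amphiregulin and is the next annotated coding gene after EREG on the plus strand, was lower by less. It had 7.39 and 6.25 CPM in mock and 5.16 and 5.94 CPM in fusion libraries, from 151 and 133 against 89 and 145 counts. The highest fusion library was close to the lowest mock library. Its log2 fold change was -0.31 ± 0.18 (SE), which did not pass the test, and it was -0.18 without mock replicate 1. The ratio of EREG to AREG counts, which is not one of levels because transcript lengths differ, was 1.31 and 1.92 in mock and 1.04 and 1.01 in the fusion libraries, lower in both of the latter.

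HBEGF, which encodes the heparin-binding ligand, was at a low level. It had 17 and 15 counts in mock, or 0.832 and 0.704 CPM, and 22 and 52 counts in the fusion libraries, or 1.27 and 2.13 CPM. JAZF1-SUZ12 replicate 2 was the highest, and both fusion libraries lay above both mock libraries. The log2 fold change was 1.14 ± 0.45 (SE) and did not pass the test. Without JAZF1-SUZ12 replicate 2 it was 0.72, and leaving out JAZF1-SUZ12 replicate 1 in its place gave 1.43, which was called. The sizes of the changes were thus largest for the low HBEGF and for EREG, in opposite directions.

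EGF, the founding ligand, made as a long precursor, had 14.3 and 14.7 CPM in mock and 16.7 and 19.0 CPM in fusion libraries. All 4 libraries held at least 289 counts of it. The log2 fold change was 0.29 ± 0.11 (SE) and did not pass the test; without JAZF1-SUZ12 replicate 1 it was 0.36, which was called. TGFA, the transforming growth factor alpha gene, had 2 counts in JAZF1-SUZ12 replicate 1 and none in the other libraries. BTC, the betacellulin gene, had no count in any library. A count of 0 allows up to 3 counts, or between 0.123 and 0.174 CPM in these libraries.

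**Figure D1:**
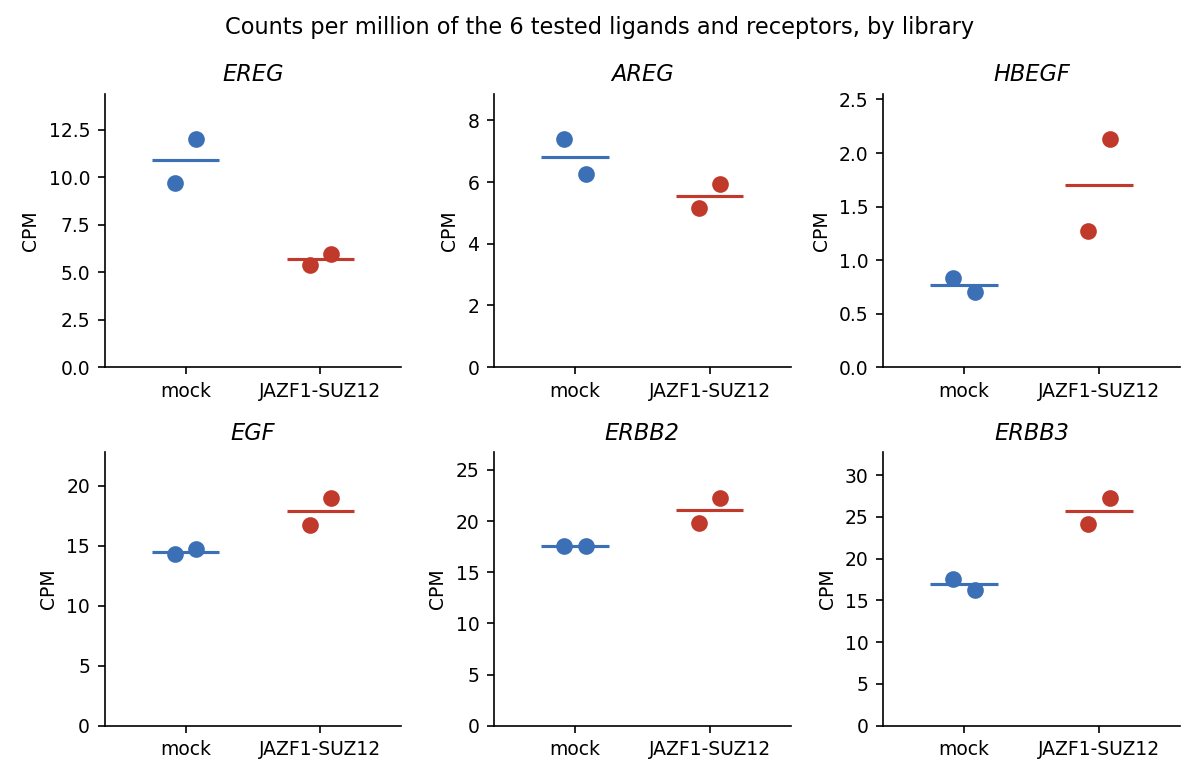
CPM (vertical axes, each from 0) of the 6 tested ligands and receptors in the 2 mock and the 2 fusion libraries; points are libraries and lines are group means. EREG was lower and ERBB3 higher in both fusion libraries, and AREG and ERBB2 show smaller gaps between the groups.

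Among the receptors, ERBB3 rose. It had 17.6 and 16.2 CPM in mock and 24.2 and 27.3 CPM in fusion libraries, from 360 and 344 against 417 and 666 counts. Each fusion library lay well above both mock libraries. The mean was 16.9 ± 1.03 CPM in mock and 25.7 ± 2.20 CPM in fusion cells (mean ± SD, n = 2 per group). The log2 fold change was 0.59 ± 0.10 (SE), a 1.51-fold higher level, and it lay between 0.51 and 0.66 when 1 library was left out. In the authors' deposited table it was 0.69 ± 0.19 (SE).

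ERBB2, the preferred partner of ERBB3, was at 17.6 CPM in both mock libraries and at 19.8 and 22.3 CPM in the fusion libraries. Its log2 fold change of 0.24 ± 0.10 (SE) did not pass the test. The ratio of ERBB3 to ERBB2 counts, again not one of levels, was 1 and 0.917 in mock and 1.22 in both fusion libraries. EGFR, the receptor for EREG, AREG and EGF, had 2 counts in mock replicate 1, 2 in JAZF1-SUZ12 replicate 2 and none in the other libraries. ERBB4 had no count in any library. Thus ERBB2 and ERBB3 were the receptor transcripts with enough counts to test, and those of both receptors that bind EREG and EGF-type ligands were at or under 3 counts in each library.

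**Figure D2:**
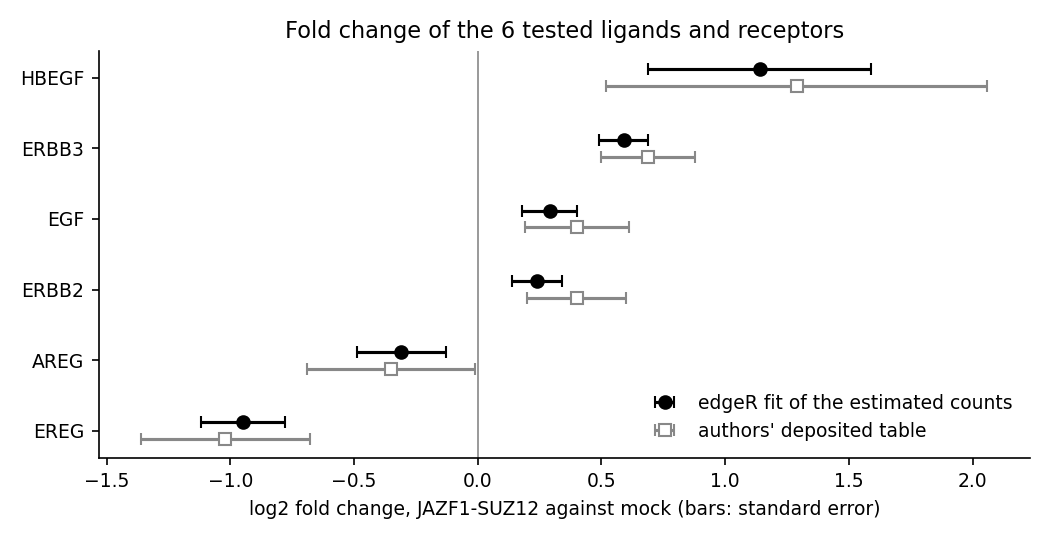
Log2 fold change, JAZF1-SUZ12 over mock (horizontal axis) for the 6 tested genes, from the edgeR fit made here (filled circles) and from the authors' deposited table (open squares); bars are standard errors. EREG and AREG lie below 0 and the other 4 genes above it in both sources.

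Levels of different genes were set in order after division by transcript length, as CPM per kilobase of the longest GENCODE 29 transcript. In mock, AREG was highest at 5.50 ± 0.65, followed by ERBB2 at 3.57 in both libraries, EGF at 2.96 ± 0.053, ERBB3 at 2.85 ± 0.174, EREG at 2.35 ± 0.358 and HBEGF at 0.322 ± 0.0377 CPM per kilobase (mean ± SD, n = 2 per group). EGF and ERBB3 overlapped between libraries, and the other neighbours in this order did not. In fusion cells AREG, ERBB3 and ERBB2 overlapped, at 4.47 ± 0.445, 4.34 ± 0.372 and 4.27 ± 0.359 CPM per kilobase (mean ± SD, n = 2 per group). They were followed without overlap by EGF at 3.66 ± 0.327, EREG at 1.23 ± 0.0903 and HBEGF at 0.713 ± 0.253 CPM per kilobase (mean ± SD, n = 2 per group). The transcripts the authors' counts rest on are not known, and the order depended on the length. Over the median length of the coding transcripts, ERBB3 was highest in mock, at 16.4 CPM per kilobase, followed by AREG at 6.21, ERBB2 at 5.44 and EGF at 3.22. The median length for ERBB3 was 1027 bases, against 5919 for its longest transcript, so its first place on this scale rests on short annotated transcripts. On the same scale ERBB3 was highest in fusion cells too, at 23.5 and 26.6 CPM per kilobase, and the mean of ERBB2, at 6.51, lay above that of AREG, at 5.05, without overlap between libraries.

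The genes around EREG were examined next, to ask whether the lower EREG level was shared along the chromosome. Within 500 kb of EPGN, EREG, AREG or BTC the count table held 22 genes, of which 6 were tested. EREG was the only one called, where 24.7% of all genes tested were called. All 6 had a log2 fold change below 0, beside a median of 0.0 over all genes tested. The 6 include EREG and AREG, which were chosen with this comparison known. The others, none of them called, were EPGN, CXCL2, MTHFD2L and CXCL3. EPGN, an EGFR ligand gene, had 14 and 19 counts in mock and 5 and 13 in fusion libraries, or -0.91 ± 0.59 on the log2 scale (SE; adjusted p = 0.287 by edgeR). The chemokine gene CXCL2 was at -0.61 ± 0.38 (SE; adjusted p = 0.262 by edgeR). MTHFD2L, a mitochondrial folate enzyme gene and the best counted neighbour, was at -0.18 ± 0.08 (SE; adjusted p = 0.135 by edgeR). CXCL3 was at -0.07 (adjusted p = 0.858 by edgeR), and ranged from -0.24 to 0.06 when 1 library was left out. Outside this stretch on the same chromosome, at 73740506 to 73743716, lies CXCL8, a chemokine gene chosen for mention after its value was seen. It was called higher, at 1.70 on the log2 scale (adjusted p = 0.00702 by edgeR). In the authors' deposited table it was 1.56 with an adjusted p of 0.189. A gene chosen in this way does not show how far lower values extend. The counting of strand is not stated, so antisense transcripts between these genes cannot be set apart.

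**Figure D3:**
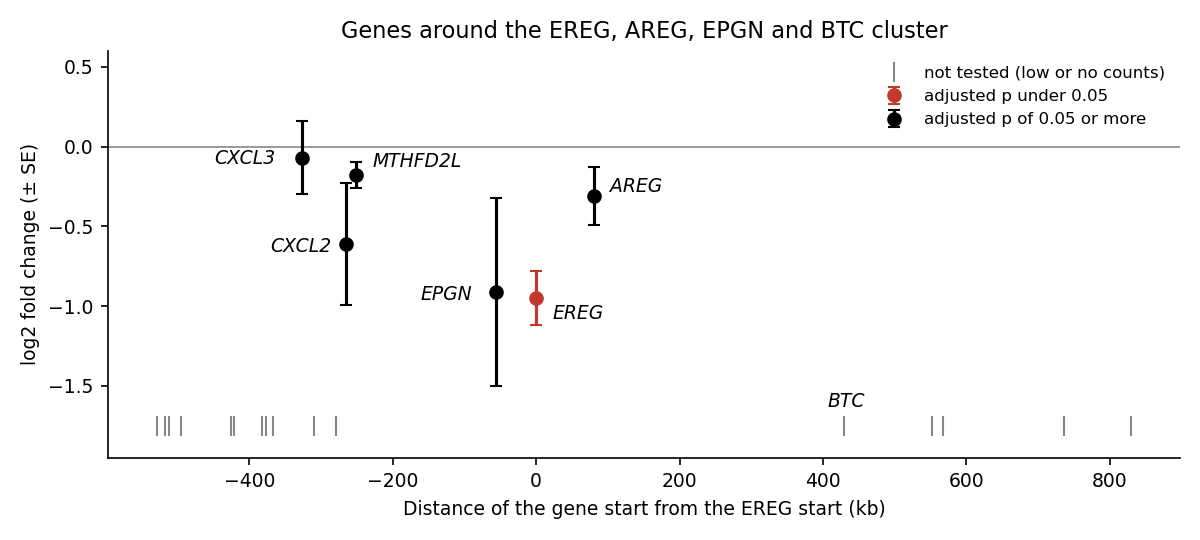
Log2 fold change with its standard error (vertical axis) against the distance of each gene's start from the EREG start in kilobases (horizontal axis); grey ticks are genes of the count table that were not tested. EREG, in red, was the only gene called. BTC had no counts and is marked at its start, on the minus strand. Its nearer end lies 289.8 kb beyond the end of AREG.

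The other EGF-family ligand genes were few and low. Of 5 genes, 2 were tested, and 1 was called, where 24.7% of all genes tested were called. The called gene was NRG4, a neuregulin that binds ERBB4. NRG4 had 102 and 143 counts in mock and 135 and 235 in fusion libraries, and its mean rose from 5.85 ± 1.22 to 8.72 ± 1.27 CPM (mean ± SD, n = 2 per group). The log2 fold change was 0.56 (adjusted p = 0.0373 by edgeR). That call was lost with DESeq2 (adjusted p = 0.141), and without mock replicate 1 or JAZF1-SUZ12 replicate 2, where the log2 fold change was 0.37 and 0.41 (adjusted p = 0.247 and 0.24 by edgeR), and the log2 fold change was 0.06 in the authors' deposited table. Of the neuregulins that bind ERBB3, NRG1 had 12 and 8 counts in mock and 4 and 5 in fusion libraries, and NRG2 had 0 and 4 against 8 and 14; neither was tested. NRG3 had at most 4 counts in a library.

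Genes for shedding and trafficking of the ligands included TIMP3, which had the highest log2 fold change among the tested genes of the pathway lists. Of 13 genes, 11 were tested, 2 were called higher and 1 lower, or 27.3%, beside 24.7% of all genes tested. The list had a median log2 fold change of 0.05. TIMP3, an inhibitor of metalloproteases that acts on the main ligand sheddase ADAM17, rose from 3.04 ± 0.217 to 13.6 ± 0.829 CPM (mean ± SD, n = 2 per group), a difference of 2.14 on the log2 scale (adjusted p = 1.94e-07 by edgeR). ADAM19, a metalloprotease gene, rose from 7.91 ± 0.228 to 20.5 ± 1.71 CPM (mean ± SD, n = 2 per group), a difference of 1.35 on the log2 scale (adjusted p = 1.31e-06 by edgeR). TIMP1, another inhibitor, fell from 208 ± 1.37 to 171 ± 4.64 CPM (mean ± SD, n = 2 per group), a difference of -0.31 on the log2 scale (adjusted p = 0.000287 by edgeR). ADAM17 and ADAM10, the sheddases best known for these ligands, were at -0.05 and -0.14 on the log2 scale and were not called (adjusted p = 0.634 and 0.0625 by edgeR).

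Of 23 genes listed as negative regulators of ERBB receptors, 19 were tested, 4 were called higher and 3 lower, or 36.8%. Among all genes tested 24.7% were called, and the difference between these shares was not tested. The list had a median log2 fold change of -0.02. ERRFI1, which encodes MIG6, a direct inhibitor of the ERBB kinases, rose from 63 and 62 counts in mock to 113 and 135 in fusion libraries, a difference of 0.98 on the log2 scale (adjusted p = 0.00415 by edgeR). In the authors' deposited table it was 0.35, with an adjusted p of 0.772. SH3KBP1, an adaptor of CBL in receptor endocytosis, rose from 2.65 ± 0.364 to 8.28 ± 0.567 CPM (mean ± SD, n = 2 per group), a difference of 1.62 on the log2 scale (adjusted p = 3.16e-05 by edgeR). The phosphatase gene PTPRJ rose by 0.54 on the log2 scale (adjusted p = 0.00182 by edgeR), and by 0.35 without mock replicate 1. TNK2 rose by 0.27 and SOCS4 fell by 0.29 on the log2 scale (adjusted p = 0.0306 and 0.0134 by edgeR). PTPN1 and USP8, named because they complete the list's calls, fell by 0.17 and 0.16 (adjusted p = 0.032 and 0.0456 by edgeR). The role of USP8 in receptor trafficking is not only negative, so its fall is not read as a lost inhibitor. The calls of TNK2, SOCS4, PTPN1 and USP8 were lost with DESeq2 (adjusted p = 0.099, 0.0908, 0.0688 and 0.148) and without mock replicate 1 (adjusted p = 0.322, 0.0652, 0.053 and 0.17 by edgeR). TNK2 was at 0.13 on the log2 scale without mock replicate 1, and leaving out mock replicate 2 gave 0.43. PTPN1 and USP8 were also not called without JAZF1-SUZ12 replicate 2 (adjusted p = 0.257 and 0.219 by edgeR) or without mock replicate 2 (adjusted p = 0.183 and 0.124 by edgeR).

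All 33 adaptor and relay genes were tested, and 4 were called, 2 in each direction, or 12.1%. Among all genes tested 24.7% were called, and the difference between these shares was not tested. The list had a median log2 fold change of -0.03. PIK3CD, the leukocyte PI3K catalytic subunit gene, rose from 37.4 ± 0.403 to 49.5 ± 0.217 CPM (mean ± SD, n = 2 per group), a difference of 0.38 on the log2 scale (adjusted p = 0.000606 by edgeR). PIK3CB, another catalytic subunit gene, fell by 0.24 on the log2 scale (adjusted p = 0.00302 by edgeR). CRKL, an adaptor and BCR-ABL1 substrate, rose by 0.14 and its relative CRK fell by 0.21 (adjusted p = 0.0157 and 0.0281 by edgeR). The CRK call was lost with DESeq2 (adjusted p = 0.121), and those of CRK and CRKL without mock replicate 1 (adjusted p = 0.0948 and 0.0917 by edgeR). CRK was also not called without JAZF1-SUZ12 replicate 2 or mock replicate 2 (adjusted p = 0.256 and 0.0936 by edgeR). The log2 fold changes of all 33 lay between -0.30 and 0.38.

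Of 28 genes induced by ERK or feeding back on it, 26 were tested, 3 were called higher and 4 lower, or 26.9%. This stands beside 24.7% of all genes tested. The list had a median log2 fold change of -0.01. CXCL8, which encodes interleukin 8 and lies on chromosome 4 near the EREG window, had 18 and 11 counts in mock and 38 and 59 in fusion libraries, a difference of 1.70 on the log2 scale (adjusted p = 0.00702 by edgeR). PHLDA1 rose from 4.61 ± 0.404 to 7.92 ± 0.144 CPM (mean ± SD, n = 2 per group; adjusted p = 0.00571 by edgeR). The AP-1 genes JUN and FOSL1 differed in direction, with log2 fold changes of 0.44 and -0.45 (adjusted p = 0.00539 and 0.00614 by edgeR). Both calls were lost without mock replicate 1 (adjusted p = 0.0623 and 0.0502 by edgeR). MCL1, an abundant anti-apoptotic gene, fell by 0.23 on the log2 scale (adjusted p = 0.000922 by edgeR). SPRED2 and ETV1, named because they complete the calls, fell by 0.19 and 0.29 (adjusted p = 0.0348 and 0.0359 by edgeR) and were not called with DESeq2 (adjusted p = 0.12 and 0.179), without JAZF1-SUZ12 replicate 2 (adjusted p = 0.174 and 0.249 by edgeR) or without mock replicate 2 (adjusted p = 0.256 and 0.153 by edgeR), and ETV1 was not called without mock replicate 1 (adjusted p = 0.09 by edgeR). DUSP6, a usual readout of ERK activity, had at most 2 counts in a library, and EGR1 was at 0.17 on the log2 scale and was not called (adjusted p = 0.0527 by edgeR).

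**Figure D4:**
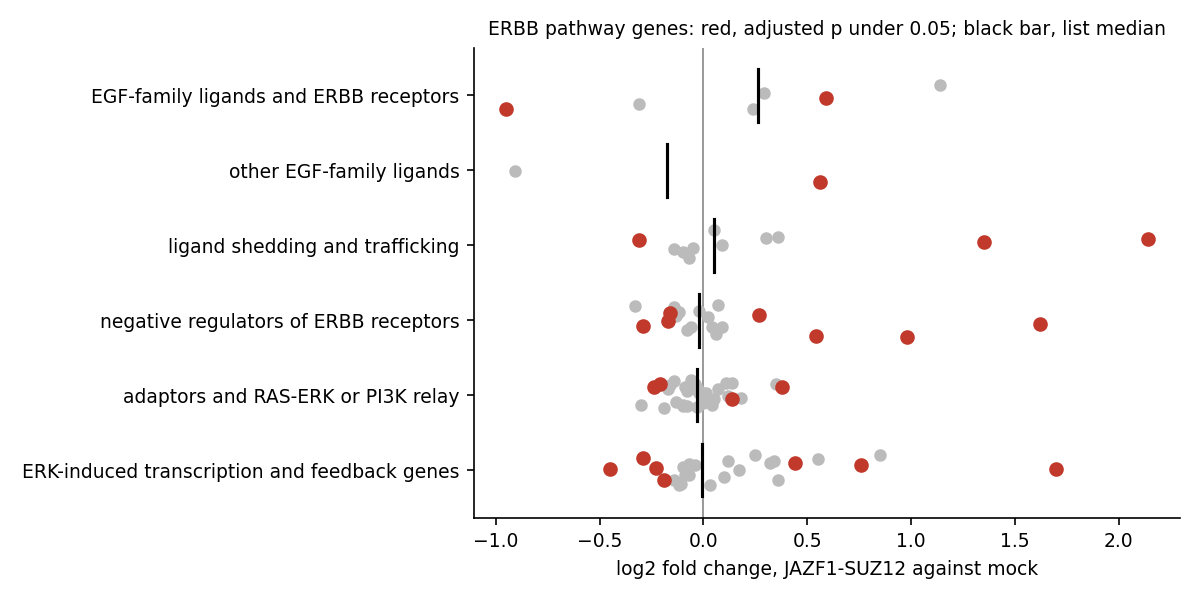
Log2 fold change, JAZF1-SUZ12 over mock (horizontal axis) for the tested genes of each list; points are genes, spread vertically for legibility, red points passed an adjusted p under 0.05 and black bars are list medians. The medians of the lists other than the ligands and receptors lie between -0.18 and 0.05, and TIMP3, at 2.14, lies farthest to the right.

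Over the 5 lists together, 91 of 102 genes were tested, and 12 were called higher and 10 lower, or 24.2%, beside 24.7% of all genes tested. The called share of the pathway was thus close to that of the whole table. The number called was 14 with DESeq2 against 22 by edgeR, where all genes called were 2407 against 3643.

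The genes whose pattern over the 4 libraries was most like that of EREG were named by the Euclidean distance between log2 CPM values, each centred on the gene's own mean, among 11621 genes with a symbol and a mean of at least 50 counts. The nearest were SOHLH2 (distance 0.122), DLX1 (0.243), CALB1 (0.26), FDXACB1 (0.274) and GP6 (0.281). SOHLH2 had 12.5 and 14.5 CPM in mock and 7.24 and 7.37 CPM in fusion libraries, with the higher mock value in replicate 2, as for EREG. With 4 libraries such nearness is mostly a matter of the difference between the groups.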

How the data were processed

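The deposited values are estimated counts per gene, as whole and fractional numbers; between 29.9% and 33.6% of a library's values were not whole, and per the file headers they are not normalized. Per the submitters' processing notes, fastp 0.20.1, kallisto 0.46.2 and DESeq2 1.30.1 were used and the build was hg38; the annotation and the use of strand are not given in the sources used here. The estimated counts were rounded. Genes kept by edgeR's filterByExpr (edgeR 4.0.16, R 4.3.3) were scaled with TMM and tested with the quasi-likelihood F test, two-sided, with group as the only term and Benjamini-Hochberg adjustment over all 14750 genes. The standard error is the size of the log2 fold change over the root of F. CPM are rounded counts per 1000000 of the library total. Floors cover counting error only. In simulated counts the test recovered 159 of 197 genes changed 2-fold among 14472, with 11 false calls. The simulation used the dispersions edgeR had fitted and no change smaller than 2-fold. Its figures therefore do not carry over to smaller changes or to the larger share of genes called in the data.

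A second table, deposited by the authors, compares the groups; in it, per the file headers, the signal is a mean of normalized counts, the log2 fold change and its standard error are given, the score is their ratio, and p-values follow, raw and adjusted. It was used for log2 fold changes and adjusted p-values only.

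The members and the lists were chosen with earlier results of these data known. All 10 members were named, and from each list up to 5 called genes with the smallest p-values, every tested neighbour and the 5 genes most like EREG. Positions are those of GENCODE 29 (35410 genes matched). Promoter windows were matched by symbol for 9 of the 10 members, all but ERBB3. The alternatives were DESeq2 size factors, DESeq2 1.42.0, limma-voom (limma 3.58.1), no filter, a mean of at least 50 counts, the replicate number as a block, leaving out each library, and another transcript length. The design had assumed counts as deposited, rounded where not whole.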

Additional observations from a re-analysis of the deposited data

How the results depend on the processing

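The log2 fold change of EREG lay between -0.96 and -0.93 and that of ERBB3 between 0.58 and 0.61 over the alternative scalings, tests, filters and the block, and both kept their calls in all 10 alternatives. DESeq2 called 2407 genes against 3643, and 14 pathway genes against 22, 3 negative regulators against 7, and 0 of the other ligands against 1 (1 at an unadjusted p under 0.05). When 1 library was left out, the lone sample being assumed to vary like the other group, the calls ranged from 13 to 26 for the pathway lists, from 0 to 1 for the other ligands, from 3 to 7 for the negative regulators and from 2 to 6 for the relay genes. Each of these lowest values was reached without mock replicate 1, and that of the other ligands also without JAZF1-SUZ12 replicate 2. Without either of these libraries fewer of all genes tested were called too, so the drop was not particular to the lists. A mean of at least 50 counts ended the calls of USP8, SPRED2 and ETV1 (edgeR, adjusted p = 0.07, 0.051 and 0.0523). CXCL3 ranged from -0.24 to 0.06 when 1 library was left out, and lay above 0 only without JAZF1-SUZ12 replicate 1. Of 316 values of 32 genes under the alternatives, 281 kept direction and side of the threshold, 32 lost the call, 2 gained it and 1 changed direction. With a replicate block, 4061 genes and 25 pathway genes were called; same-numbered libraries did not deviate together (Pearson r = 0.037 across 11826 genes, which are not independent), so this is only a check. Counts of HBEGF, EPGN, CXCL2 and CXCL8 were low, and for TGFA, EGFR, BTC and ERBB4 no difference was detectable at this depth.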

Other observations

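The log2 fold changes made here and those in the authors' deposited table were close for EREG and ERBB3 but not for every pathway gene. For NRG4 the value was 0.56 here and 0.06 in the authors' deposited table, and for ERRFI1 it was 0.98 and 0.35. For TIMP3 and ADAM19 the values were 2.14 and 1.35 here and 2.13 and 1.27 in the authors' deposited table. Of the pathway genes called here, TIMP3, ADAM19, TIMP1, SH3KBP1, PTPRJ, PIK3CD, PIK3CB and MCL1 also had an adjusted p under 0.05 there. The others, among them PHLDA1, JUN, FOSL1, CRKL, SOCS4 and TNK2, did not. Among all genes with an adjusted p there, 8.5% passed, beside 24.7% of all genes tested here. The cause of the differences was not tested.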
